A study of Solanum tuberosum with 8 samples.

Results

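The comparison described here sets leaves of potato line Stpfld252, which carries a plastid-targeted flavodoxin (Fld), against wild-type (WT) leaves after 3 days without water. It asks which transcripts stand higher or lower in that line under drought. It uses 4 of the 8 arrays of the study, 2 of droughted Stpfld252 and 2 of droughted WT, and all 42034 potato probes of the array, of which 36435 passed the filter on dim signals and were tested. Arrays were chosen by their titles and probes by not being control spots, so no measured value entered the choice.

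Stpfld252 is a single transgenic line of Solanum tuberosum cv Solara that carries a cyanobacterial Fld of Anabaena, fused to the plastid transit peptide of pea ferredoxin-NADP reductase and driven by the CaMV 35S promoter, which is active in most tissues. Its WT siblings carry no transgene. No other Fld line was on the arrays, so effects of Fld and of other features of this line cannot be told apart. Plants of both genotypes were grown from tuber slices for 4 weeks in pots of 3 L, at 400 µmol photons per square metre and second with 16 h of light a day, before irrigation was stopped, and the remaining 4 arrays hold watered plants of both genotypes. Young, fully expanded leaves of the fifth node were taken from 10 plants per genotype and treatment. Each group had 2 pools from 2 independent experiments, and the study does not say plainly whether a pool mixed the experiments. Each array thus shows a pool and not a plant.

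Flavodoxin is a small flavoprotein that shuttles electrons in cyanobacteria and some algae and can stand in for ferredoxin, the iron-sulphur protein that takes electrons from photosystem I. Plants have no flavodoxin gene of their own. In leaves, ferredoxin feeds NADP reduction through ferredoxin-NADP reductase (FNR), and it also feeds nitrite reductase, glutamate synthase, sulphite reduction and the thioredoxins that switch Calvin cycle enzymes on. Loss of water slows carbon fixation while light is still absorbed, which over-reduces this chain.

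Signals were close between the 2 arrays of each group. The SD between them was 0.169 (log2) for Stpfld252 and 0.148 for WT, and a gap of over 2-fold within a group occurred at 0.494% and 0.417% of the tested probes. On single drought arrays, 77.8% to 79.6% of probes were well above background by the scanner software's flag, the ratio of spot signal to local background had a median of 3.64 to 4.27, and 0 spots were saturated. All 4 drought arrays lay on 1 slide, with Stpfld252 at positions 1 and 2 and WT at positions 3 and 4, so array position and line cannot be told apart. Of 10 spike-in RNAs added to every sample, 9 differed between the lines by -0.22 to 0.11 under drought. The remaining spike-in, E1A_r60_3, read 12.24 and 12.55 on the Stpfld252 arrays against 10.57 and 10.61 on the WT arrays, a difference of 1.81, while its difference on the watered arrays was -0.20, and its part in the results was not tested. Leaf identity was plain on every drought array, since 40 of 44 probes described as chlorophyll a/b binding protein or Rubisco small subunit were well above background on all 4. Of 10 probes for patatin, the tuber storage protein, 4 were well above background on all 4 drought arrays. Summed patatin signal was 10.83 and 10.89 (log2) in Stpfld252 and 10.10 and 9.98 in WT, and its part in the results was not tested. Fld itself was not analysed here, because no probe is described as flavodoxin in the tables used for names.

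Under drought, the leaves of the lines differed widely. In all, 2241 probes (6.15% of those tested) were higher and 1875 (5.15%) lower in Stpfld252, 4116 together (11.3%), at a false discovery rate (FDR) under 0.05 and a fold change (FC) over 2 in limma's test. All 3 nitrate reductase, 3 nitrite reductase and 5 adenylyl-sulphate reductase probes were higher, as were 27 of 36 for chlorophyll a/b binding proteins, 21 of 32 for the Calvin cycle and 53 of 59 for the proteasome, with 0 lower in these groups. Both probes for late embryogenesis abundant (LEA) protein LE25, the asparagine synthetase probe and all 10 for raffinose synthases and seed imbibition proteins were lower. So were 9 of 11 sucrose synthase probes, with 1 higher, and 17 of 24 for small heat shock proteins, with 2 higher. The counts over all probes depended on the background correction, with 1471 higher and 1219 lower when normexp added an offset of 50, and on the signal used, with 3449 higher from processed intensities. With each contig number taken once, the calls came to 2023 higher and 1699 lower contigs or single sequences. By over 4-fold, 512 probes were higher and 385 lower, and by over 16-fold 58 and 33. At 0 of the called probes did the 2 arrays of one line overlap those of the other. The thresholds largely force this separation, so it adds nothing to the calls. The median difference over all tested probes was -0.03, and the median standard error (SE) of a difference was 0.10. The plot of mean levels shows called probes on both sides of the diagonal over nearly the whole range of signal.

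**Figure D1:**
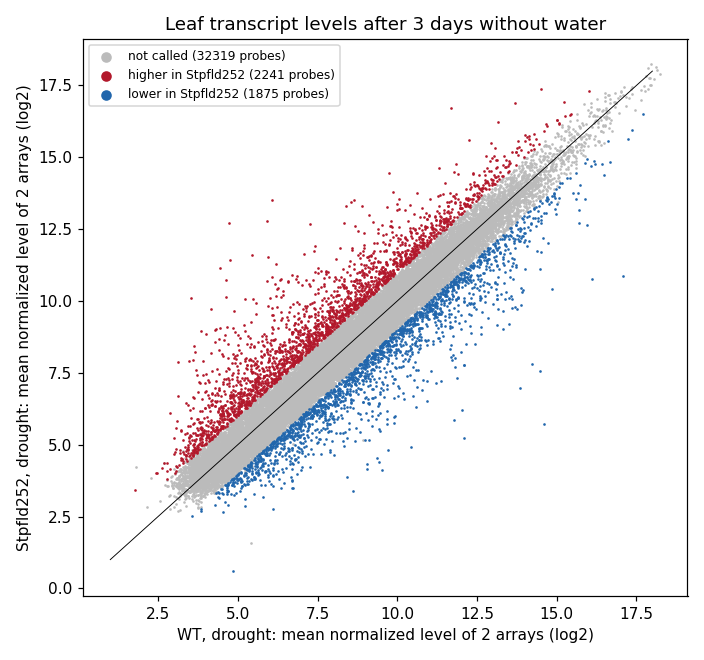
Each point is 1 of the 36435 tested probes, plotted by its mean normalized level (log2) on the 2 WT drought arrays (horizontal) and the 2 Stpfld252 drought arrays (vertical), with the line of equal levels. The 2241 probes higher in Stpfld252 lie above the line and the 1875 lower ones below it, and the 32319 others along it.

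The array files list probes by identifier. Names and functional categories (MapMan bins) come from the study's supplementary tables, which describe 5217 probes by their best match, often in another species, and hold an entry for 2434 of the 4116 called probes (59.1%). These tables list probes that the study called on these same arrays, most of them for a response to drought in WT or Stpfld252 or for a difference between the watered lines. A count of called members in a category therefore describes chosen probes. The shares over all probes tested, 6.15% higher and 5.15% lower, are given as background, and nothing particular to a category is read from the gap. Probes with the same contig number or the same description may hybridize to the same or closely related transcripts, so their separate values are uncertain.

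The study also measured some of these transcripts by quantitative RT-PCR, and its primers give the sequence by which a named transcript can be found where the array probe's sequence was not used here. Those for ferredoxin I, RPN9b, ATHB7 and the transcript named nitrate reductase 3 (NR3) are shown because these represent the groups on which the comparison turns, namely photosynthetic electron carriers, the proteasome, drought-responsive transcription factors and nitrogen assimilation.
Fd1 forward: agggctggttcttgctcatctt
Fd1 reverse: tcctgcagcttcttggtcatca
RPN9b forward: ctatccccctgagtgtgatt
RPN9b reverse: gacacatgaactgtcccttc
ATHB7 forward: agcatgaatccctcctcatcca
ATHB7 reverse: ctgctgtcttcacacaaagcca
NR3 forward: acttgctaacgctgaagcatgg
NR3 reverse: tcaacgtgtaaggtcgctgagt

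Among probes whose description names a function and which were well above background on all 4 drought arrays, the widest gap with higher levels in Stpfld252 belonged to a relative of stomatin, a membrane scaffold protein, at bf_mxflxxxx_0059c05.t3m.scf. It read 12.77 and 12.68 (log2) in Stpfld252 and 4.64 and 4.78 in WT, a difference of 8.01 (SE 0.10, FDR 1.10e-07) or 258-fold. The watered lines also differed there, by 6.12. A similar picture held at bf_ivrootxx_0040e05.t3m.scf, matched to At5g48850, which in Arabidopsis is the sulphur deficiency-induced gene SDI1 and which the table describes as a male sterility MS5 family protein. It read 13.53 on both Stpfld252 arrays against 6.13 and 5.98 in WT, a difference of 7.47 (SE 0.12, FDR 1.55e-07), with 5.04 in watered leaves.

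Higher in Stpfld252 too were transcripts of lipid, translation and cell wall enzymes. At bf_mxflxxxx_0003d10.t3m.scf, for long chain acyl-CoA synthetase 6, which in Arabidopsis activates fatty acids for breakdown in peroxisomes, levels were 11.63 and 11.56 in Stpfld252 and 5.44 and 5.43 in WT, a difference of 6.16 (FDR 1.10e-07). MICRO.1443.C2, similar to initiation factor eIF-2, which brings the initiator tRNA to the ribosome, read 11.52 and 11.55 against 5.88 and 6.01, a difference of 5.59 (FDR 1.55e-07). Pectin methylesterases remove methyl groups from cell wall pectin. Their probe MICRO.10963.C2 read 12.74 and 12.64 in Stpfld252 and 7.31 and 7.24 in WT, a difference of 5.42 (FDR 1.91e-07), and MICRO.4403.C1 read 11.26 and 11.33 against 6.26 and 6.14, a difference of 5.09 (FDR 1.55e-07). In watered leaves both pectin methylesterase probes were lower in Stpfld252, by -1.11 and -1.37.

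The largest decrease was at MICRO.14712.C2, a contig without a sequence match, which read 5.88 and 5.58 in Stpfld252 and 14.57 and 14.62 in WT, a difference of -8.86 (SE 0.32, FDR 1.81e-06). Among named transcripts it was at SDBN001P05u.scf, a match to tomato LE25, a LEA protein of drying tissue. It read 7.66 and 7.49 in Stpfld252 against 14.35 and 14.60 in WT, a difference of -6.90 (SE 0.26, FDR 1.96e-06). A second LE25 probe, SSBT003F21x.scf, gave 7.92 and 7.69 against 14.23 and 14.24, a difference of -6.43 (SE 0.39, FDR 1.64e-05). In watered leaves neither LE25 probe passed the thresholds (0.48 and 0.91), and all watered readings of SDBN001P05u.scf lay between 3.49 and 4.53. The droughted WT arrays thus stood far above the other 6 arrays for this transcript, though the treatments were hybridized on separate slides and slide and treatment cannot be told apart.

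Other transcripts that were abundant in droughted WT and scarce in droughted Stpfld252 encode amino acid enzymes and stress proteins. For branched-chain aminotransferase, which makes or starts to degrade valine, leucine and isoleucine, MICRO.10926.C1 read 7.12 and 6.83 in Stpfld252 and 13.81 and 13.88 in WT, a difference of -6.87 (FDR 1.91e-07). The neighbouring contig MICRO.10925.C1 read 6.07 and 5.63 against 11.81 and 11.73, a difference of -5.92 (FDR 5.91e-07). Of 5 probes described as this enzyme, 3 were lower and 0 higher, and their differences ran from -6.87 to 0.51. MICRO.15773.C1, matched to ATFP6, a farnesylated protein of Arabidopsis filed under metal handling, read 6.23 and 6.21 against 12.04 and 12.03, a difference of -5.81 (FDR 1.23e-07). At bf_slmwxxxx_0010h09.t3m.scf, described as a water stress-related protein, the difference was -5.51 (FDR 1.88e-06), and at MICRO.16372.C1, for a low molecular weight heat shock protein like soybean Hsp22.3, it was -4.89 (FDR 1.60e-05). None of these probes was called between the watered lines. The plot of the named extremes shows the 2 arrays of each line close together and the lines several log2 units apart.

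**Figure D2:**
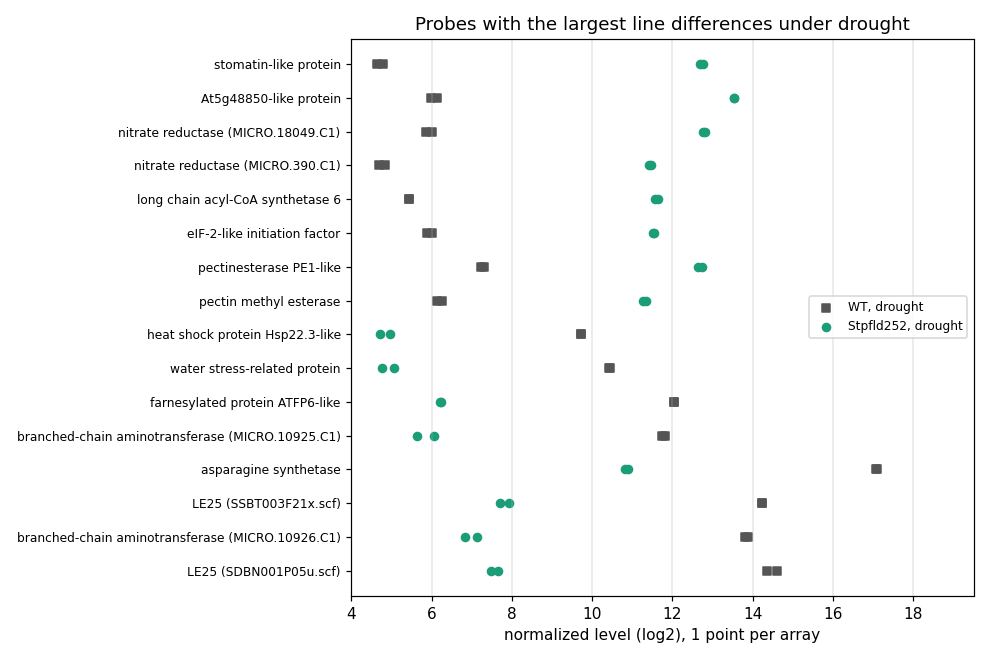
Normalized level (log2, horizontal) of the 16 probes with a named function and the largest differences, 1 point for each of the 4 drought arrays, WT as squares and Stpfld252 as circles. The stomatin-like protein at the top reads 4.64 and 4.78 in WT and 12.77 and 12.68 in Stpfld252, and the order is turned in the lower 8 rows, down to LE25.

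Where a called probe was dim on both arrays of one line and well above background on both of the other, its change is a bound. WT was the dim line for 196 probes higher in Stpfld252, and Stpfld252 for 140 lower ones. For a bound, dim signals were raised to the lowest signal among probes well above background on that array. The largest bounds were 103-fold higher in Stpfld252 at bf_mxflxxxx_0037h02.t3m.scf (FDR 3.08e-07) and 42.6-fold lower at MICRO.17783.C1 (FDR 3.75e-07), both without a match. At both probes the dim readings already lay above that lowest signal, so none was raised. These bounds are therefore the same as the measured differences.

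For nitrate and nitrite reduction the lines stood in opposite order in droughted and watered leaves at most probes. Nitrate reductase turns nitrate into nitrite in the cytosol, and the ferredoxin-dependent nitrite reductase turns this into ammonium in the plastid. All 3 nitrate reductase probes and all 3 nitrite reductase probes were higher in Stpfld252 under drought. MICRO.18049.C1, a potato nitrate reductase, read 12.76 and 12.80 in Stpfld252 and 6.0 and 5.85 in WT, a difference of 6.85 (SE 0.08, FDR 1.08e-07) or 115-fold. MICRO.390.C1, also described as nitrate reductase, read 11.41 and 11.47 against 4.68 and 4.84, a difference of 6.68 (SE 0.11, FDR 1.55e-07). POCD505TP, described as NADH nitrate reductase, was not well above background in droughted WT and was at least 27-fold higher in Stpfld252 (FDR 4.53e-07). In watered leaves the same 3 probes were lower in Stpfld252, by -1.51, -1.64 and -1.61. On the watered arrays MICRO.18049.C1 read 13.34 and 13.35 in Stpfld252 and 14.83 and 14.88 in WT. The level in droughted Stpfld252 was thus a little below that of watered Stpfld252 and further below that of watered WT. Droughted WT stood far below all 3 other groups. The treatments were hybridized on separate slides, so slide and treatment cannot be told apart.

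For nitrite reductase, MICRO.10331.C1 read 13.24 and 13.34 in Stpfld252 and 8.80 and 8.99 in WT, a difference of 4.39 (SE 0.09, FDR 2.80e-07). MICRO.4468.C1 read 9.58 and 9.96 against 6.08 and 6.06, a difference of 3.70 (FDR 1.94e-06). MICRO.8565.C1 differed less, with 10.46 and 10.36 against 9.18 and 9.16, a difference of 1.24 (FDR 2.46e-05). It is the transcript named nitrate reductase 3 in the primer list and nitrite reductase in the other tables, so its identity is uncertain. Glutamine synthetase, glutamate synthase and glutamate dehydrogenase bind ammonium or pass it on. Of 3 glutamine synthetase probes, MICRO.8061.C1 was higher (7.86 and 7.68 against 5.34 and 5.21, difference 2.50, FDR 1.80e-06). MICRO.1095.C1 and MICRO.1095.C2 did not pass the test, with differences of -0.14 (FDR 0.236) and -0.20 (FDR 0.130). Ferredoxin-dependent glutamate synthase (MICRO.8806.C1), which draws on the same electron carrier that Fld can replace, differed by 0.75 (FDR 0.000133) and stayed within 2-fold. The NADH-dependent form (MICRO.292.C1) differed by 0.33 (FDR 0.0137). Glutamate dehydrogenase probes MICRO.7144.C1 and bf_stolxxxx_0055h06.t3m.scf read -0.57 and -0.59, also within 2-fold. Of the 13 listed probes of nitrogen metabolism, 7 were higher and 0 lower under drought, with a median of 1.24, while 2 were higher and 9 lower in watered leaves, with a median of -1.32. Of the 13, 11 were listed for a difference between the watered lines, which was measured on other arrays than their drought values. All arrays were normalized together, however, and the list was chosen with earlier results of these data known. Of these 11, 6 were higher under drought.

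Asparagine synthetase, which makes the main nitrogen-rich amino acid for storage and transport, went the other way. Its probe MICRO.3150.C2 read 10.81 and 10.90 in droughted Stpfld252 and 17.10 and 17.07 in droughted WT, a difference of -6.23 (SE 0.07, FDR 1.08e-07) or 75-fold. In watered leaves the lines stood in the opposite order, with 13.70 and 13.73 in Stpfld252 and 10.73 and 10.76 in WT, a difference of 2.97. The line effect therefore differed between treatments by -9.20 (FDR 1.50e-07).

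Sulphate assimilation reduces sulphate for cysteine, and adenylyl-sulphate reductase is its committed step. All 5 probes described as adenylyl-sulphate reductase were higher in Stpfld252 under drought, by 3.14 to 3.82 with a median of 3.36, and 4 of them were higher in watered leaves. MICRO.2137.C1 among them read 8.39 and 8.64 in Stpfld252 and 4.86 and 4.52 in WT, a difference of 3.82 (FDR 1.88e-06). Both sulphate adenylyltransferase probes, for the enzyme one step before, were higher, by 1.54 and 2.48. Of 15 sulphate transporter probes, 4 were higher and 3 lower. MICRO.18035.C1, like an Arabidopsis sulphate transporter, read 5.57 and 5.31 against 6.84 and 6.96, a difference of -1.46 (FDR 0.000470) that fell under 2-fold with a normexp offset of 50 (-0.85). Of the 23 listed probes of sulphate transport and assimilation, 11 were higher and 3 lower.

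Photosynthetic transcripts that passed both thresholds, on the FDR and on the fold change, were all more abundant in droughted Stpfld252. Of 54 listed probes for photosystem II and its antenna, 34 were higher and 0 lower, with a median of 1.27 under drought and 0.24 in watered leaves. Of 21 probes for photosystem I and its antenna, 16 were higher and 0 lower, with a median of 1.3. Among 36 probes described as chlorophyll a/b binding proteins, which gather light for both photosystems, 27 were higher and none lower, by up to 4.91 at bf_mxlfxxxx_0014b07.t3m.scf. This probe read 13.41 and 13.49 in Stpfld252 and 8.35 and 8.74 in WT (FDR 5.79e-07). MICRO.5899.C2, for a type III protein of the photosystem I antenna, read 12.27 and 12.34 against 10.10 and 10.16, a difference of 2.17 (FDR 1.24e-06). For the photosystem II core protein psbY, MICRO.5278.C1 read 14.57 and 14.41 against 13.19 and 13.24, a difference of 1.27 (FDR 1.81e-05). Photosystem I subunit psaK, MICRO.1823.C4, read 15.95 and 16.22 against 14.74 and 14.67, a difference of 1.38 (FDR 0.000422). At each of these 4 probes the lines did not overlap, as at every called probe. None was called between the watered lines, where their differences, in the same order, were 0.97, 0.96, 0.27 and 0.77, all within 2-fold. For psaK the line effect did not pass the test of a difference between treatments (0.61, FDR 0.0779). In pooled leaf RNA, fewer cells of a type and less RNA per cell cannot be told apart. Summed over the 44 probes for chlorophyll a/b binding proteins and Rubisco small subunits, the signal was 20.04 and 20.08 (log2) in Stpfld252 and 18.75 and 18.67 in WT.

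Ferredoxin, whose tasks Fld can take over, belongs to the next group of 33 probes for the cytochrome b6f complex, ATP synthase and electron carriers, of which 13 were higher and 0 lower with a median of 0.79. Potato ferredoxin I, MICRO.11295.C1, read 13.61 and 13.71 in Stpfld252 and 12.47 and 12.54 in WT, a difference of 1.15 (SE 0.09, FDR 5.20e-05), against -0.02 in watered leaves. A pair of probes described as ferredoxin-related, cSTB41K8TH and MICRO.5835.C1, differed by 1.66 (FDR 1.67e-05) and 1.07 (FDR 0.000441). The second fell under 2-fold with median scaling (0.94). Both descriptions open with At3g16240 of Arabidopsis as an unnamed or unknown protein, so the identity of this pair is uncertain. Ferredoxins of the non-photosynthetic type, which serve roots and other heterotrophic tissues, followed another pattern. The probe bf_mxflxxxx_0070d09.t3m.scf was higher in Stpfld252 by 1.46 under drought (FDR 7.47e-05) and by 2.90 in watered leaves, and its drought difference fell under 2-fold with a normexp offset of 50 (0.82). MICRO.9842.C1 was higher by 1.04 under drought (FDR 0.000392) and 2.95 in watered leaves, and its drought difference fell under 2-fold when Stpfld252 replicate 1 (0.95) or WT replicate 2 (0.97) was left out, and also with that offset (0.425). For FNR, MICRO.4050.C1 read 14.14 and 14.43 against 13.28 and 13.34, a difference of 0.97 (FDR 0.000226) that stayed just under 2-fold and passed it without Stpfld252 replicate 1 (1.11), and MICRO.609.C2 differed by -0.86 (FDR 0.00184). The last, bf_mxflxxxx_0058h06.t3m.scf, described as a putative ferredoxin, differed by -0.59 (FDR 0.00116), so it and MICRO.609.C2 were lower within 2-fold.

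Carbon fixation and the pigments it relies on followed the photosystems. Of 32 Calvin cycle probes 21 were higher and 0 lower, with a median of 1.23. All 8 probes for the Rubisco small subunit were higher, by 1.28 to 3.17. The largest, MICRO.4165.C3 for small chain 1 of potato, read 12.91 and 13.50 in Stpfld252 and 10.06 and 10.01 in WT (difference 3.17, FDR 1.05e-05). Chloroplast carbonic anhydrase, which supplies Rubisco with CO2, read 9.83 and 9.73 against 6.30 and 6.16 at MICRO.4170.C2, a difference of 3.55 (FDR 7.66e-07). Photorespiration recycles the product of Rubisco's side reaction with oxygen, and 4 of the 10 probes filed there were higher and 0 lower. The largest increase among them, 1.86 at bf_arrayxxx_0035b07.t7m.scf, belongs to a probe described as leucoanthocyanidin dioxygenase, so its place in this list is uncertain. Of 23 probes for tetrapyrrole synthesis, the pathway to chlorophyll and haem, 10 were higher and 0 lower, with a median of 0.95. The plot of categories sets these shares side by side with those of the whole array.

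**Figure D3:**
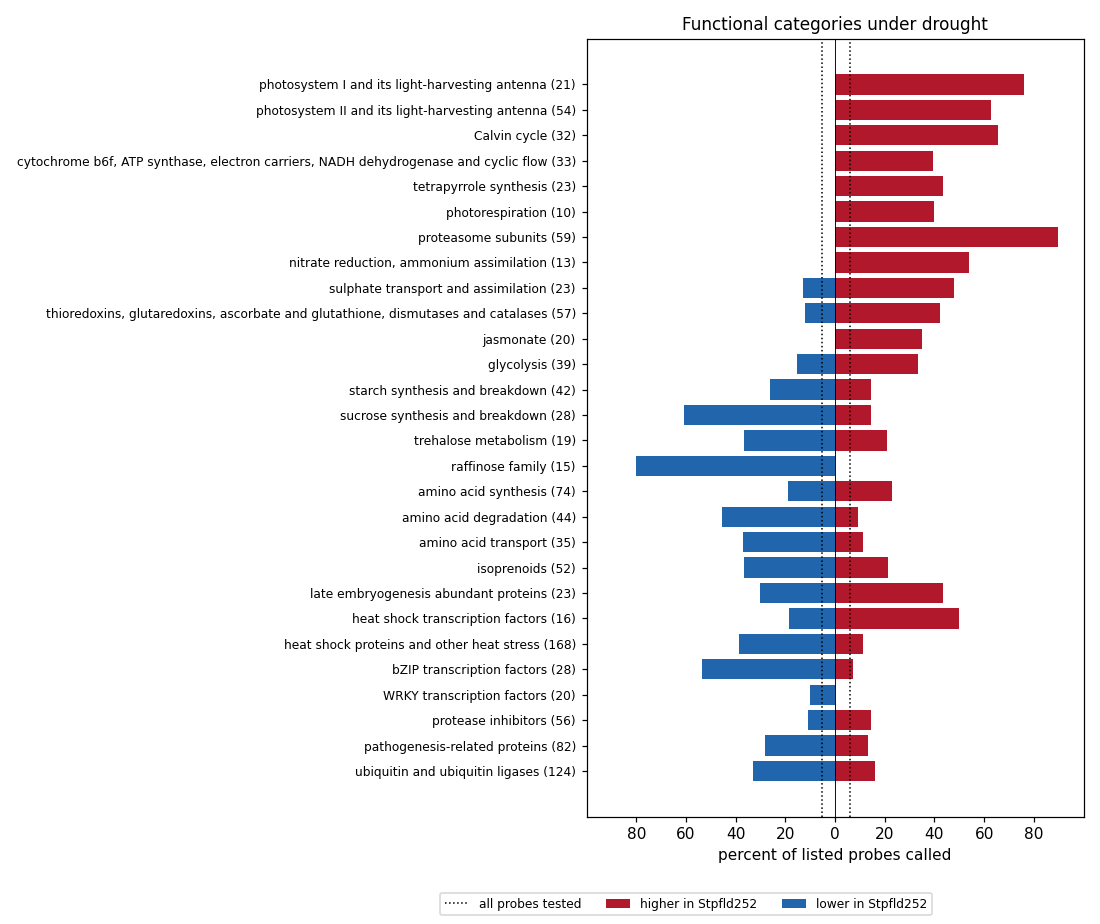
Percent of the listed probes of each functional category drawn (number of probes in parentheses) that were higher in droughted Stpfld252 (bars to the right) or lower (bars to the left), with dotted lines at the shares of all probes tested, 6.15% higher and 5.15% lower. Among those drawn, photosynthesis, tetrapyrrole, proteasome, nitrogen and jasmonate categories have bars to the right only, the raffinose and WRKY categories to the left only, and category members come from tables of probes called on these arrays.

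Carbohydrate enzymes were divided by pathway. Sucrose metabolism was lower at 17 of 28 listed probes and higher at 4, and the raffinose family was lower at 12 of 15 and higher at 0. Glycolysis was higher at 13 of 39 and lower at 6, with a median of 0.48, and myo-inositol metabolism had 2 higher and 2 lower of 8. Sucrose synthases cleave sucrose for growth and storage, and 9 of their 11 probes were lower and 1 higher, with a median of -2.11. Among them, bf_suspxxxx_0063d02.t3m.scf read 6.15 and 6.69 in Stpfld252 and 9.33 and 9.52 in WT, a difference of -3.0 (SE 0.26, FDR 8.51e-05). Invertases, the other sucrose-cleaving enzymes, were lower at 8 of 10 probes and higher at 0, with a median of -1.15. Raffinose family sugars accumulate in drying plant tissue. All 10 probes for raffinose synthases and seed imbibition proteins were lower, by -1.23 to -3.69, and POADC13TP among them read 7.29 and 7.16 against 10.94 and 10.89 (difference -3.69, FDR 3.79e-07). Galactinol synthase, which makes the galactosyl donor for these sugars, was lower at 2 of 5 probes and higher at 0, with a median of 0.36.

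Trehalose-6-phosphate is a signal of sucrose status. Of 8 probes for trehalose-6-phosphate synthases, 6 were lower and 1 was higher, and MICRO.14835.C1 read 9.91 and 10.22 in Stpfld252 and 13.26 and 13.02 in WT, a difference of -3.08 (FDR 6.17e-06). The phosphatase that removes the signal gave the opposite order at bf_ivrootxx_0027a03.t3m.scf, with 13.11 and 13.00 against 11.46 and 11.50, a difference of 1.57 (FDR 5.60e-06). Starch probes were divided, with 6 higher and 11 lower of 42. Granule-bound starch synthase (GBSSI), which makes amylose, read 13.25 and 13.39 at MICRO.920.C2 against 11.70 and 11.50, a difference of 1.72 (FDR 2.00e-05). MICRO.1811.C6, filed under the phosphoglucan phosphatase SEX4 of starch breakdown, differed by -1.57 (FDR 2.07e-05). Cytosolic NADP-malic enzyme, MICRO.17965.C1, which turns malate into pyruvate, read 6.72 and 6.64 against 10.51 and 10.47, a difference of -3.81 (FDR 1.11e-06).

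Amino acid degradation was lower in Stpfld252 at 20 of 44 listed probes and higher at 4. Lysine-ketoglutarate reductase/saccharopine dehydrogenase (LKR/SDH), the bifunctional enzyme that opens lysine breakdown, was lower at all 3 probes, by -4.15 to -4.44. MICRO.7729.C1 read 10.45 and 10.34 in Stpfld252 and 14.81 and 14.87 in WT, a difference of -4.44 (FDR 1.91e-07), while in watered leaves Stpfld252 was higher by 1.26. Amino acid synthesis was divided, with 17 probes higher and 14 lower of 74. Glutamate decarboxylase, which makes gamma-aminobutyrate and is filed there, read 10.67 and 10.75 at MICRO.3974.C4 against 5.85 and 5.97 in WT, a difference of 4.81 (FDR 2.98e-07). Amino acid transporters were lower at 13 of 35 probes and higher at 4. Matches to the same Arabidopsis transporter, At3g56200, stood at both ends of that list, with -3.84 at MICRO.14769.C1 (FDR 3.15e-07) and 2.23 at MICRO.12456.C1 (FDR 3.41e-06).

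Heat shock proteins, the chaperones of stressed cells, were lower in Stpfld252 more often than higher. Of 24 small heat shock protein probes 17 were lower and 2 higher, with a median of -1.39. Of 18 probes for HSP70 13 were lower and 1 was higher, with a median of -1.38, and of 26 for its DnaJ partners 10 were lower and 1 was higher. The transcription factors that drive them were divided, with 8 of 16 heat shock factor probes higher and 3 lower. MICRO.7407.C1, matched to HSFA9 of sunflower, which acts in developing seeds, read 7.03 and 6.96 in Stpfld252 and 10.61 and 10.62 in WT, a difference of -3.62 (FDR 8.08e-07). LEA proteins, which protect drying cells, were also divided, with 10 of 23 probes higher and 7 lower, the LE25 probes among the lower.

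Abscisic acid (ABA) is the hormone of water shortage, and type 2C protein phosphatases restrain its signal. Its 40 listed probes were divided, with 9 higher and 10 lower, from -2.75 to 2.60. The phosphatase probe MICRO.3489.C1 read 9.82 and 9.59 in Stpfld252 and 12.47 and 12.45 in WT, a difference of -2.75 (FDR 3.16e-06). ATHB7, a homeodomain leucine zipper factor that is induced by drought and ABA in Arabidopsis, read 12.65 and 12.76 at bf_ivrootxx_0045h05.t3m.scf against 14.54 and 14.46, a difference of -1.79 (SE 0.08, FDR 4.46e-06). In watered leaves ATHB7 was higher in Stpfld252 by 1.52. Some bZIP factors read the ABA signal at promoters. Of 28 probes filed under bZIP factors, 15 were lower and 2 higher, with a median of -1.03. The largest increase filed there, 1.67 at MICRO.11291.C1, belongs to a probe described as a homeobox-leucine zipper protein, so the list is mixed. All 5 probes described as TAF G-box-binding proteins were lower, by -1.80 to -3.79, and TAF-3, MICRO.6937.C2, read 5.94 and 5.85 against 9.65 and 9.72. NAC factors were evenly divided, with 8 of 21 probes higher and 8 lower, from -2.80 to 3.98. At the low end, NAC2, MICRO.12856.C1, was lower by -2.80 under drought (FDR 1.08e-06) and by -2.56 in watered leaves.

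Other hormone transcripts differed as well. For jasmonate, 7 of 20 probes were higher and 0 lower. All 4 probes described as 12-oxophytodienoate reductase, a family that includes the enzyme reducing the jasmonate precursor in peroxisomes, were higher. Among them, BF_LBCHXXXX_0053E03_T3M.SCF read 14.53 and 14.72 in Stpfld252 and 11.37 and 11.26 in WT, a difference of 3.31 (FDR 5.84e-07). Its description does not name the family member. Gibberellin had 3 higher and 2 lower of 28 probes. In its metabolism, GA 20-oxidase, an enzyme of gibberellin synthesis, read 11.23 and 11.31 at MICRO.6620.C1 against 8.64 and 8.66, a difference of 2.62 (FDR 9.80e-07). GA 2-oxidase, which inactivates the hormone, read 5.94 and 5.85 at cSTB42I1TH against 7.91 and 7.78, a difference of -1.95 (FDR 3.48e-06). The gibberellin-regulated GAST1, MICRO.11045.C2, differed by 0.36 (FDR 0.0432), and its 2 Stpfld252 readings of 5.95 and 5.58 lay just above the WT readings of 5.36 and 5.46. Ethylene probes were higher at 14 of 67 and lower at 7, with a median of 0.24 and a range of -2.30 to 5.11. The ethylene-forming enzyme ACO1, MICRO.2939.C2, differed by 0.52 (FDR 0.000593), within 2-fold. At the low end of that range, Pti4, an ethylene response factor of tomato defence, was lower at MICRO.12256.C1 by -2.30 (FDR 1.71e-06).

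Redox proteins were higher at 24 of 57 listed probes and lower at 7, with a median of 0.73 and a range of -2.72 to 5.50, the highest at a probe described only as an unknown rice protein. All 4 dehydroascorbate reductase probes, for the enzyme that regenerates ascorbate, were higher, by 1.61 to 2.30. Glutaredoxin 1, MICRO.13440.C1, which is filed under both redox and ubiquitin ligases, read 10.76 and 10.85 in Stpfld252 and 7.71 and 7.67 in WT, a difference of 3.12 (FDR 1.67e-06), and was lower in watered Stpfld252 by -1.16. A thioredoxin, MICRO.8643.C1, read 9.15 and 9.30 against 11.94 and 11.96, a difference of -2.72 (FDR 8.35e-07). In the cell wall, 10 of 29 pectinesterase probes were higher and 1 was lower. A cellulose synthase isolog, STMGM17TV, read 11.65 and 11.62 against 7.20 and 6.97, a difference of 4.55 (FDR 9.67e-07). The expansin-related protein at bf_mxflxxxx_0026g01.t3m.scf, of a family that loosens walls, read 6.25 and 6.36 against 10.50 and 10.65, a difference of -4.27 (FDR 1.08e-06).

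The proteasome, which degrades ubiquitin-tagged proteins, was higher in Stpfld252 at 53 of 59 listed probes and lower at 0, with a median of 1.53. Of the 59, 58 were listed for a difference between the watered lines, where the median of the 59 was 1.52. RPN9b, a subunit of the regulatory lid, read 13.48 and 13.44 at MICRO.767.C1 in Stpfld252 and 11.52 and 11.58 in WT, a difference of 1.91 (SE 0.08, FDR 2.51e-06), with 1.68 in watered leaves. The alpha subunit B of the 20S core read 14.52 and 14.43 at MICRO.1887.C2 against 9.71 and 9.76, a difference of 4.74 (FDR 1.55e-07). MICRO.1887.C4 of the same contig number, named PSA2B, differed by 1.24 (FDR 1.43e-05), with 14.80 and 14.70 against 13.49 and 13.53. The enzymes that attach ubiquitin did not share this direction. Of 124 probes for ubiquitin and ubiquitin ligases 20 were higher and 41 lower.

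How far the line effect under drought matched that in watered leaves was read at probes chosen on the 4 watered arrays, which share no array with the drought comparison. In watered leaves 1452 probes (3.99%) were higher and 762 (2.09%) lower in Stpfld252. Of the 1452, 529 (36.4%) were also higher under drought, 111 were lower and 812 were not called. Their median difference was 1.40 in watered and 0.58 in droughted leaves. Of the 762, 221 (29.0%) were also lower under drought, 61 were higher and 480 were not called, with medians of -1.28 and -0.39. Over all tested probes, 6.15% were higher and 5.15% lower under drought, and nothing particular is read from the calls in the opposite direction. The plot of the probes called in watered leaves shows a dense cloud on both sides of 0 on the drought axis and a tail along the diagonal at large differences.

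**Figure D4:**
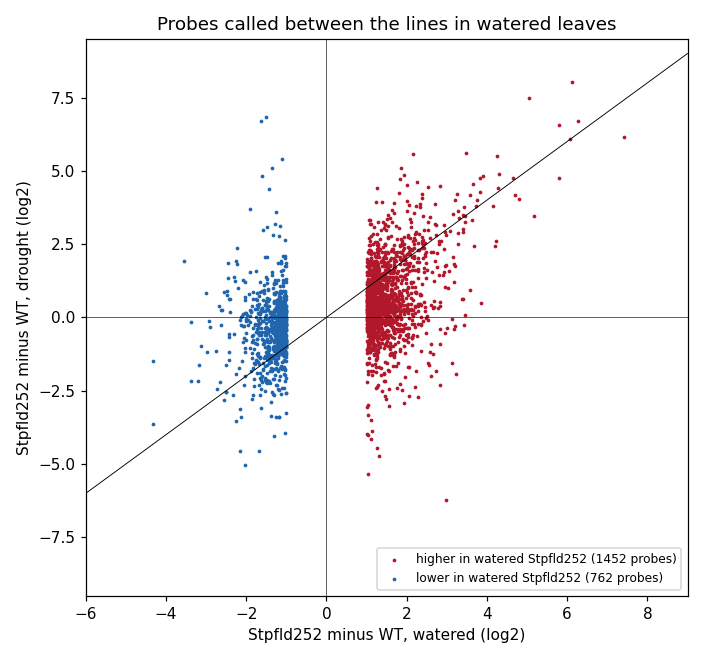
Line difference (log2, Stpfld252 minus WT) in watered leaves (horizontal) against that in droughted leaves (vertical) for the 1452 probes higher and the 762 probes lower in watered Stpfld252, with the line of equal differences. Under drought, the probes chosen on the watered arrays spread to both sides of 0. Their drought medians are 0.58 for those higher and -0.39 for those lower in watered Stpfld252. The stomatin-like protein, at 6.12 and 8.01, is far from 0 in both treatments and lies above the diagonal.

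Whether a line effect changed with treatment was tested by the difference of the differences. It passed the same thresholds at 4518 probes (12.4%), 2237 with a higher (6.14%) and 2281 with a lower (6.26%) line effect under drought. Of the 2241 probes higher in droughted Stpfld252, 1205 (53.8%) had a larger line effect under drought than in watered leaves, 23 a smaller one, and 1013 did not pass. Of the 1875 lower ones, 1141 (60.9%) had a larger effect under drought, 7 a smaller one, and 727 did not pass. The drought arrays that gave the first calls enter this test too, so these shares describe the called probes. Of the 58 probes over 16-fold higher in droughted Stpfld252, 33 were also called higher in watered leaves, 13 of them by over 16-fold, whereas of the 33 probes over 16-fold lower, 4 were called lower in watered leaves and 0 by over 16-fold. Among the named genes, the stomatin-like protein was higher in both treatments, nitrate reductase changed order between them, and LE25 was called under drought and not in watered leaves.

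Gene groups that were listed for a watered difference showed the same variety. Of the 58 proteasome probes listed for it, 1 had a higher and 2 a lower line effect under drought. Of 56 probes for protease inhibitors, which block digestive enzymes of insects and microbes, 44 were higher in watered Stpfld252, while under drought 8 were higher and 6 lower, with medians of 1.34 and -0.02. Of the 42 among them listed for the watered difference, 6 were higher and 2 lower under drought, and 31 had a lower line effect there. For 9 probes of WRKY transcription factors, regulators of defence genes, that were listed for the same reason, the median was 1.49 in watered and -0.29 in droughted leaves, 0 were called under drought, and 8 had a lower line effect. The watered values that chose these probes enter the test of the difference, while the drought values come from other arrays. These groups were, however, chosen with earlier results of these data known. The plot of line effects by treatment shows nitrogen probes crossing upward, proteasome probes running level, protease inhibitors falling to a median near 0 and WRKY factors falling to a median below it.

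**Figure D5:**
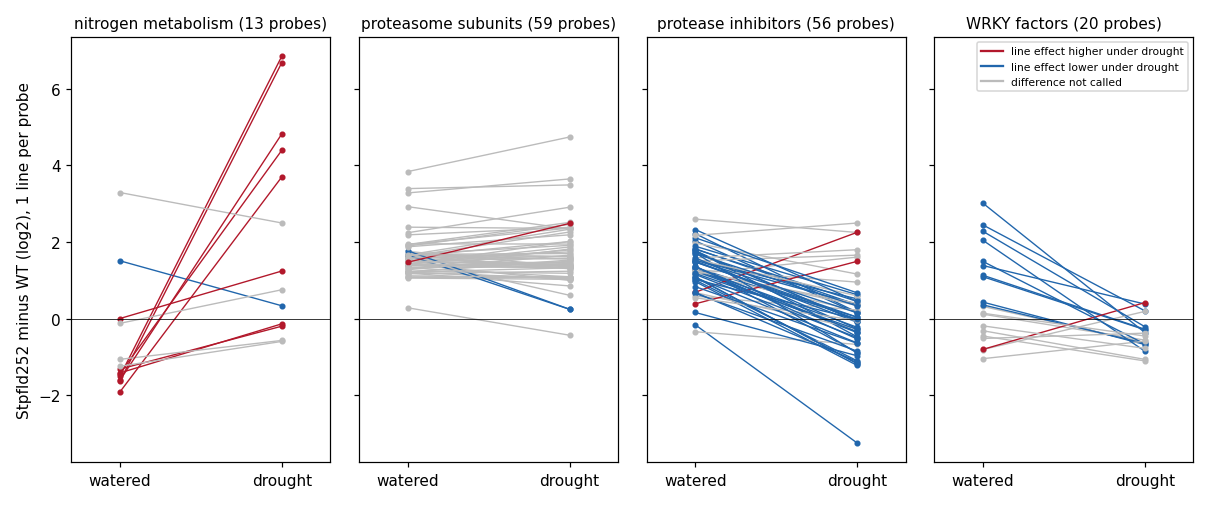
Difference between the lines (log2, Stpfld252 minus WT) in watered and droughted leaves, 1 line per probe, for the listed probes of nitrogen metabolism (13), proteasome subunits (59), protease inhibitors (56) and WRKY factors (20), coloured where the difference between treatments passed the thresholds. Medians go from -1.32 to 1.24, 1.52 to 1.53, 1.34 to -0.02 and 0.34 to -0.51.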

How the data were processed

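Leaf RNA of 8 samples was labelled with 1 dye and hybridized to POCI potato arrays of 43451 spots, 42034 of them potato probes. The authors deposited, per the file headers, the output of Feature Extraction 11.5.1.1 for each array, and the columns read were the median intensity of spot pixels, the same for the background around the spot, the processed intensity (background-subtracted and detrended by the software) and the flags. None of these had been normalized between arrays. The authors also deposited a table of log2 values; its background was corrected with normexp, its arrays were quantile normalized in limma and its dim probes removed, and it served here as an alternative.

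In R 4.3.3 with limma 3.58.1, spots were corrected with normexp (offset 0, median signal and median background), taken to log2 and quantile normalized. Probes passed the filter when brighter than the 95th percentile of 153 negative controls, multiplied by 1.1, in both replicates of 1 or more of the 4 groups. A group-means model of all 8 arrays was fitted, leaving 4 residual degrees of freedom, and limma's moderated test gave the line effect under drought, in watered leaves, and their difference. FDR is the Benjamini-Hochberg adjusted p over the 36435 probes within a contrast, and a probe was called at FDR under 0.05 and over 2-fold. The number of arrays, 2 per group, limits the precision. P-values measure the spread between pools, and it is not clear whether the pools of a group came from separate experiments. The steps were tested on simulated data.

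Replicate numbers were not used as a block, because same-numbered arrays did not deviate together (r of -0.11 to 0.13 between groups, -0.09 for the drought groups). The alternatives were a normexp offset of 50, processed intensities scaled to the 75th percentile, median scaling, cyclic loess, the deposited log2 table, no filter and other filters, the drought arrays alone, an intensity trend with a robust prior, a threshold of 1.2-fold inside the test, the replicate block, outlier spots set to missing, and each drought array left out. A local background from the mean of pixels was added after seeing the data.

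Descriptions and MapMan bins were read from the supplementary tables, whose own fold changes and p-values were not used, and 1 of which was held in shortened form. Members and lists were chosen with earlier results of these data known. Named are the 8 largest increases and decreases with a described function that were well above background on all 4 drought arrays, the 3 largest whatever the description, examples from the largest change of each list, probes with qRT-PCR primers, all listed ferredoxin, FNR and nitrogen metabolism probes, and the largest bounds. Subgroups such as sucrose synthases were formed by description after values were seen. Physiology, metabolites, qRT-PCR values and yields were not analysed here.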

Additional observations from a re-analysis of the deposited data

Results flagged for a closer look

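The results given here stand out because the line effect (Stpfld252 minus WT, log2) differed between drought and watered leaves in limma's test of that difference, at FDR under 0.05 and over 2-fold, as it did for 4518 of all tested probes. Values are the line effect under drought minus that in watered leaves, and no explanation was tested.

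Among the named probes the difference was widest for MICRO.14712.C2, without a match (-9.34), and for asparagine synthetase MICRO.3150.C2 (-9.20). It was large and positive for nitrate reductase at MICRO.18049.C1 (8.36), MICRO.390.C1 (8.32) and POCD505TP (6.43) and for nitrite reductase at MICRO.10331.C1 (5.83), MICRO.4468.C1 (5.61) and MICRO.8565.C1 (1.24). Glutamine synthetase probes MICRO.1095.C1 and MICRO.1095.C2 gave 1.28 and 1.12, glutamate decarboxylase MICRO.3974.C4 gave 5.47, and glutamate synthase of the NADH type, MICRO.292.C1, gave -1.17. Pectin methylesterases gave 6.52 (MICRO.10963.C2) and 6.46 (MICRO.4403.C1), cellulose synthase isolog STMGM17TV 4.97 and the expansin-related bf_mxflxxxx_0026g01.t3m.scf -4.14.

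Transcripts high in droughted WT gave negative values. These were -7.38 (SDBN001P05u.scf) and -7.35 (SSBT003F21x.scf) for LE25, and -6.84 (MICRO.10926.C1) and -5.65 (MICRO.10925.C1) for branched-chain aminotransferase. LKR/SDH MICRO.7729.C1 gave -5.71, the unmatched MICRO.17783.C1 -5.34, ATFP6-like MICRO.15773.C1 -5.25, the water stress-related bf_slmwxxxx_0010h09.t3m.scf -4.89 and the amino acid transporter MICRO.14769.C1 -4.47. The small heat shock protein MICRO.16372.C1 gave -4.02 and HSFA9-like MICRO.7407.C1 -3.65. NADP-malic enzyme MICRO.17965.C1 gave -3.51, sucrose synthase bf_suspxxxx_0063d02.t3m.scf -3.49, trehalose-6-phosphate synthase MICRO.14835.C1 -2.82 and SEX4-like MICRO.1811.C6 -1.41. POADC13TP, described as a raffinose synthase family or seed imbibition protein, gave -3.03. In hormone and transcription genes, TAF-3 MICRO.6937.C2 gave -4.63, ATHB7 bf_ivrootxx_0045h05.t3m.scf -3.31, the phosphatase MICRO.3489.C1 -3.09, GA 2-oxidase cSTB42I1TH -2.83 and Pti4 MICRO.12256.C1 -1.07. The sulphate transporter MICRO.18035.C1 gave -2.68 and thioredoxin MICRO.8643.C1 -2.47.

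Positive values stood at the chlorophyll a/b binding protein bf_mxlfxxxx_0014b07.t3m.scf (3.94), type III antenna protein MICRO.5899.C2 (1.21), psbY MICRO.5278.C1 (1.01), ferredoxin I MICRO.11295.C1 (1.17), the ferredoxin-related cSTB41K8TH (1.58) and MICRO.5835.C1 (1.18), Rubisco small chain MICRO.4165.C3 (2.58) and carbonic anhydrase MICRO.4170.C2 (2.90). Non-photosynthetic ferredoxins gave -1.44 (bf_mxflxxxx_0070d09.t3m.scf) and -1.91 (MICRO.9842.C1). Glutaredoxin MICRO.13440.C1 gave 4.27, GA 20-oxidase MICRO.6620.C1 3.44, eIF-2-like MICRO.1443.C2 3.43, the SDI1 match bf_ivrootxx_0040e05.t3m.scf 2.43, GBSSI MICRO.920.C2 2.38, 12-oxophytodienoate reductase BF_LBCHXXXX_0053E03_T3M.SCF 2.23, the stomatin-like bf_mxflxxxx_0059c05.t3m.scf 1.89, adenylyl-sulphate reductase MICRO.2137.C1 1.77, trehalose-6-phosphate phosphatase bf_ivrootxx_0027a03.t3m.scf 1.60 and ACO1 MICRO.2939.C2 1.04. Long chain acyl-CoA synthetase bf_mxflxxxx_0003d10.t3m.scf, higher in both treatments, gave -1.25.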

How the results depend on the processing

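In none of 18 alternatives was a called probe called in the opposite direction. An offset of 50 in normexp moved the counts to 1471 higher, 1219 lower and 2922 with a differing line effect, keeping 65.3% of the calls, and processed intensities scaled to the 75th percentile gave 3449 higher. Leaving out 1 drought array in turn gave 2243 to 2354 higher, 1840 to 2095 lower and 4489 to 4666 with a differing line effect. The replicate block gave 2245 higher and 1873 lower, and 4525 with a differing line effect, and the replicate numbers do not pair the arrays. The local background from the mean of pixels, chosen after seeing the data, gave 1795 and 1449, and the deposited log2 values gave 1785 and 1481. With probes well above background on all 4 drought arrays, list medians changed sign for myo-inositol metabolism (-0.235 to 0.0311) and for storage proteins and patatins (0.350 to -0.197). Of the 64 called probes named, 4 lost the call in some setting. MICRO.9842.C1 gave 0.425 with offset 50, 0.673 in the deposited table, 0.943 with the drought arrays alone and 0.907 with the mean background. MICRO.18035.C1 and bf_mxflxxxx_0070d09.t3m.scf gave -0.846 and 0.822 with offset 50, and MICRO.5835.C1 gave 0.941 with median scaling. Gains were MICRO.4050.C1 with processed intensities (1.04) and the drought arrays alone (1.00), and MICRO.11045.C2 with cyclic loess (1.00). The cause was not tested. Probes dim in one line allow bounds only, 196 higher and 140 lower.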
